A study of Arabidopsis thaliana with 42 samples.

Results

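The transcripts described here are those whose change between 30 and 60 min after dexamethasone (DEX) differed between the KAN1-GR line and wild type. For each probe set the change in KAN1-GR, 60 min minus 30 min, was taken and the same change in wild type grown on the same day was subtracted, with the arrays at 0 min left out. The comparison used 12 of the 42 arrays of the series and all probe sets of the ATH1 array, an Affymetrix chip for Arabidopsis thaliana genes, of which 16129 were tested.

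The 4 groups of 3 arrays were KAN1-GR at 60 min, KAN1-GR at 30 min, wild type (Columbia ecotype) at 60 min and wild type at 30 min. All were whole seedlings, 7 days old, grown in liquid MS medium with sucrose, and wild type was given the same 50 µM DEX as the line. KAN1-GR carries the KAN1 coding region joined to the hormone-binding part of the glucocorticoid receptor (GR) and driven by the 35S promoter, which is active in most tissues, so KAN1 was present in many cells that do not normally make it. Each array held RNA of a pool of about 50 seedlings from a flask of its own, and the labels do not say how many transformed lines were used. RNA of whole seedlings cannot separate a change within cells from a change in the number of cells of a type.

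KANADI1 (KAN1) is a GARP-family DNA-binding protein that specifies the lower, abaxial side of leaves and other lateral organs and is known mainly as a repressor of transcription. It acts against the class III homeodomain-leucine zipper (HD-ZIPIII) factors such as REVOLUTA (REV), which specify the upper, adaxial side. Without DEX the fusion protein is held in the cytoplasm, and DEX lets it enter the nucleus. Changes at the later time can include both genes that KAN1 acts on and genes downstream of these. No inhibitor of protein synthesis is named in the labels, so the groups do not separate them.

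The deposited values are log2 values set, per probe set, to 0 at the median of untreated wild type (6 arrays). A value of 1 is thus a 2-fold higher level than in untreated wild type, and absolute levels are not kept. The KAN1 probe set (AT5G16560), which also reports the transgene, was at 8.12, 8.73 and 8.86 in KAN1-GR at 60 min and at 9.02, 9.04 and 8.73 in KAN1-GR at 30 min. In wild type it lay between -0.18 and 0.37 at both times, so each array fitted its label. One wild-type array at 30 min, replicate 6, stood apart: its centred values correlated with those of the other 2 arrays of its group at r = 0.161 and 0.301, while those 2 correlated at r = 0.709. In KAN1-GR the mean of 9 root hair markers was lower than in wild type at both times, from -1.13 to -0.67 at 60 min and from -1.47 to -1.17 at 30 min, against -0.27 to 0.51 in wild type at 60 min and -0.46 to -0.27 in wild type at 30 min. None of these 9 markers passed the test in the comparison of 60 with 30 min, and their part in the results was not tested.

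Between 30 and 60 min, 33 probe sets rose and 23 fell in KAN1-GR relative to wild type (limma fitted to all 42 arrays, adjusted p below 0.05). These 56 are 0.347% of the probe sets tested, 0.205% for rises and 0.143% for falls. Of the 56, 54 report 1 gene, 32 risen and 22 fallen. Rises ran from 0.70 to 3.67 on the log2 scale with a median of 1.27, and falls from -0.62 to -3.60 with a median of -1.4. At least 2-fold changes made up 39 of the 56. The number of calls rests on a spread estimated from all 14 groups. Fitted on the 12 arrays of the comparison alone, the estimates stay the same by construction, and only CHAT kept an adjusted p below 0.05. All 56 had an unadjusted p below 0.05 there, but they were chosen on these same arrays, so this is a description. In the limma fit on all 42 arrays an unadjusted p below 0.05 was found in 1142 probe sets (7.08%). Leaving out 1 array at a time gave 36 to 73 calls, and the count was 36 without wild type at 60 min, replicate 4, and 37 without wild type at 30 min, replicate 5. Quantile normalisation, used below as an alternative, sets all arrays to 1 distribution. Before it the centred values had an SD of 0.27 to 0.42 on the wild-type arrays and of 0.46 to 0.55 on those of KAN1-GR. It took the median size of the 56 changes from 1.29 to 0.98, so a call lost there cannot be told from this scaling.

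**Figure D1:**
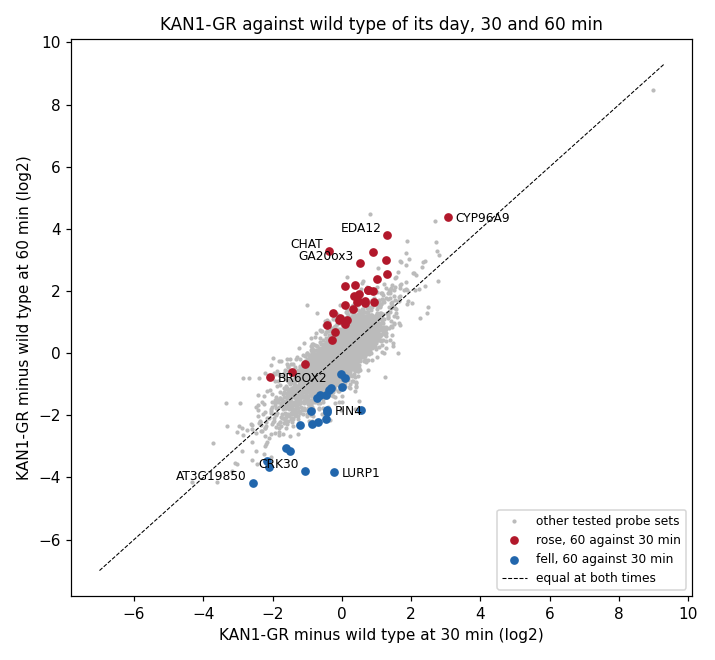
Each point is a tested probe set, with the difference between KAN1-GR and wild type at 30 min (x axis, log2) and at 60 min (y axis, log2), and the dashed line marks equal differences at both times. The 33 probe sets that rose lie above that line and the 23 that fell below it, and the single point at the upper right, near 9 at 30 min, is KAN1.

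The highest rise was that of CHAT (AT3G03480), which encodes the acetyltransferase that makes the green leaf volatile hexenyl acetate. It was at 3.64, 3.34 and 2.92 in KAN1-GR at 60 min and at 0.22, -0.03 and -0.02 in KAN1-GR at 30 min. In wild type it was at -0.02, -0.01 and 0.09 at 60 min and at 0.03, -0.01 and 1.29 at 30 min, where the high value is that of replicate 6. The KAN1-GR arrays at 60 min did not overlap with any other group. The change was 3.67 ± 0.26 (SE, n = 3 arrays in each of 4 groups), a 12.7-fold rise, with an adjusted p of 3.77e-11 in limma. The call held under every alternative tried, at 3.24 to 3.89 when 1 array was left out.

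Genes of hormone synthesis and signalling were among the rises. GA20ox3 (AT5G07200), a gibberellin 20-oxidase of gibberellin synthesis, was at 2.1, 3.71 and 2.86 in KAN1-GR at 60 min and at -0.01, 1.19 and 0.27 in KAN1-GR at 30 min. The 6 wild-type arrays lay between -0.03 and -0.01, and the KAN1-GR arrays of the 2 times did not overlap. Wild-type values this flat, also those of ABI2 and EDA12 below, may be at background, which makes fold changes uncertain. With no levels kept, this could not be checked. The change was 2.40 ± 0.30 (SE), 5.29-fold, with an adjusted p of 2.84e-05. Its SD was 0.81 in KAN1-GR at 60 min and 0.63 at 30 min, and in limma on the 12 arrays alone its adjusted p was 0.190. NPF3.1 (AT1G68570), a transporter known to carry gibberellin, was at 2.81, 2.59 and 2.69 in KAN1-GR at 60 min and at 1.81, 1.68 and 1.15 in KAN1-GR at 30 min, and changed by 1.25 ± 0.21 (adjusted p = 0.00165). In wild type it was at 0.10, 0.13 and 0.20 at 60 min and at 0.34, 0.53 and -0.13 at 30 min. Its groups in the line were separate too, but the call was lost after quantile normalisation (0.85, adjusted p = 0.0814).

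ABI2 (AT5G57050), a protein phosphatase that holds back abscisic acid (ABA) signalling, was at 2.08, 2.34 and 1.58 in KAN1-GR at 60 min and at 0.52, 0.99 and 0.64 in KAN1-GR at 30 min. It stayed between -0.05 and -0.02 on the 6 wild-type arrays. The change was 1.27 ± 0.15 (SE), 2.42-fold, with an adjusted p of 1.23e-05, and it kept its call in every fit but that of the 12 arrays alone. BR6OX2 (AT3G30180), a cytochrome P450 of the last steps of brassinosteroid synthesis, moved the other way first: it was lower in KAN1-GR than in wild type at both times, and less so at 60 min. Its values were -1.05, -0.83 and -0.81 in KAN1-GR at 60 min and -1.78, -1.54 and -1.57 in KAN1-GR at 30 min, against -0.48, -0.06 and 0.16 in wild type at 60 min and 0.77, 0.78 and -0.22 in wild type at 30 min. The change of 1.31 ± 0.28 (adjusted p = 0.0199) was lost without wild type at 30 min, replicate 4 (1.15) or 5 (1.14), wild type at 60 min, replicate 4 (1.13), and KAN1-GR at 30 min, replicate 1 (1.23).

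Other rises were in single genes of transport and secretion, grouped here after their values were seen, while the transporter genes PIN4, AST91 and SUC1 were among the falls. PHT1;5 (AT2G32830), a phosphate transporter, was at 3.29, 3.65 and 2.61 in KAN1-GR at 60 min and at 1.28, 1.62 and -0.22 in KAN1-GR at 30 min, and the 6 wild-type arrays lay between -0.21 and 0.37. It changed by 2.37 ± 0.41 (adjusted p = 0.00266). EXO70H8 (AT2G28650), a subunit of the exocyst that tethers secretory vesicles, was at 1.94, 2.73 and 1.78 in KAN1-GR at 60 min and at 0.83, -0.05 and 0.37 in KAN1-GR at 30 min, with wild type between -0.09 and 0.06. It changed by 1.81 ± 0.31 (adjusted p = 0.00224). For both genes the KAN1-GR arrays at 60 min stood above all others. The vacuolar cation/proton exchangers CAX3, at 1.46, and NHX2, at 1.15, and the potassium transporter KT1, at 1.32, passed as well, but each was lost when any of several single arrays was left out: CAX3 in 5, NHX2 in 7 and KT1 in 6 of 12 such fits, with lowest estimates of 1.25, 0.95 and 1.07. After quantile normalisation none of these 3 passed.

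The other genes among the 12 highest rises have varied roles. EDA12 (AT2G35950), named for an arrest in embryo sac development, was at 3.16, 3.97 and 4.25 in KAN1-GR at 60 min and at 0.74, 2.83 and 0.30 in KAN1-GR at 30 min, with wild type between -0.04 and -0.01. It changed by 2.50 ± 0.43 (adjusted p = 0.00234), and KAN1-GR replicate 2 was already high at 30 min. Its SD was 0.56 in KAN1-GR at 60 min and 1.36 at 30 min, against 0.01 in wild type at each time. In limma on the 12 arrays alone its adjusted p was 0.481. CYS2 (AT2G31980), a phytocystatin that inhibits cysteine proteases, changed by 2.06 ± 0.40 (adjusted p = 0.00824), with KAN1-GR at 2.97, 2.97 and 2.42 at 60 min and at 1.02, 1.42 and 1.06 at 30 min and wild type at 0.37 to 1.29. HIS1-3 (AT2G18050), a linker histone induced by drought, changed by 1.73 ± 0.35 (adjusted p = 0.0112). Its change in KAN1-GR alone was 0.71 (adjusted p = 0.159) and in wild type alone -1.02, so the larger move was in wild type. Without KAN1-GR at 30 min, replicate 3, its adjusted p was 0.0513. AT1G79520 rose by 1.55 ± 0.25, and its call held in every fit but that of the 12 arrays alone. AT4G20820 rose by 1.49 and CYP96A9, a cytochrome P450, by 1.33, and both were lost after quantile normalisation (adjusted p = 0.0735 and 0.188). CYP96A9 kept its call in 3 of the 12 fits without 1 array, and AT4G20820 in all but those without wild type at 30 min, replicate 4 (1.37), KAN1-GR at 30 min, replicate 2 (1.36) or 3 (1.26), or KAN1-GR at 60 min, replicate 2 (1.29).

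Some single genes for regulators of transcription rose as well, again grouped after their values were seen. NAC6 (AT5G39610), a NAC factor that promotes leaf senescence, rose by 1.37 ± 0.29 (adjusted p = 0.0194) on top of an earlier rise. It was at 3.09, 2.77 and 3.04 in KAN1-GR at 60 min and at 2.04, 1.27 and 1.91 in KAN1-GR at 30 min, against 0.35 to 0.92 in wild type. The groups in the line did not overlap, but the call was lost after quantile normalisation (adjusted p = 0.168) and without wild type at 30 min, replicate 4 (1.34), wild type at 60 min, replicate 5 (1.32) or 6 (1.25), KAN1-GR at 30 min, replicate 2 (1.13), or KAN1-GR at 60 min, replicate 1 (1.31). The homeodomain gene ATH1 (AT4G32980) rose by 1.30 ± 0.24, the B3 factor gene VDD (AT5G18000) by 1.2 ± 0.17 and the bHLH gene BPEp, which restricts petal cell growth, by 1.11 ± 0.22. These 3 kept their calls in all 12 fits without 1 array. After quantile normalisation VDD passed (adjusted p = 0.0244), while ATH1 (0.0653) and BPEp (0.213) did not. MYB14, at 0.99, passed in 4 of the 12 fits without 1 array and not after quantile normalisation (adjusted p = 0.104).

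**Figure D2:**
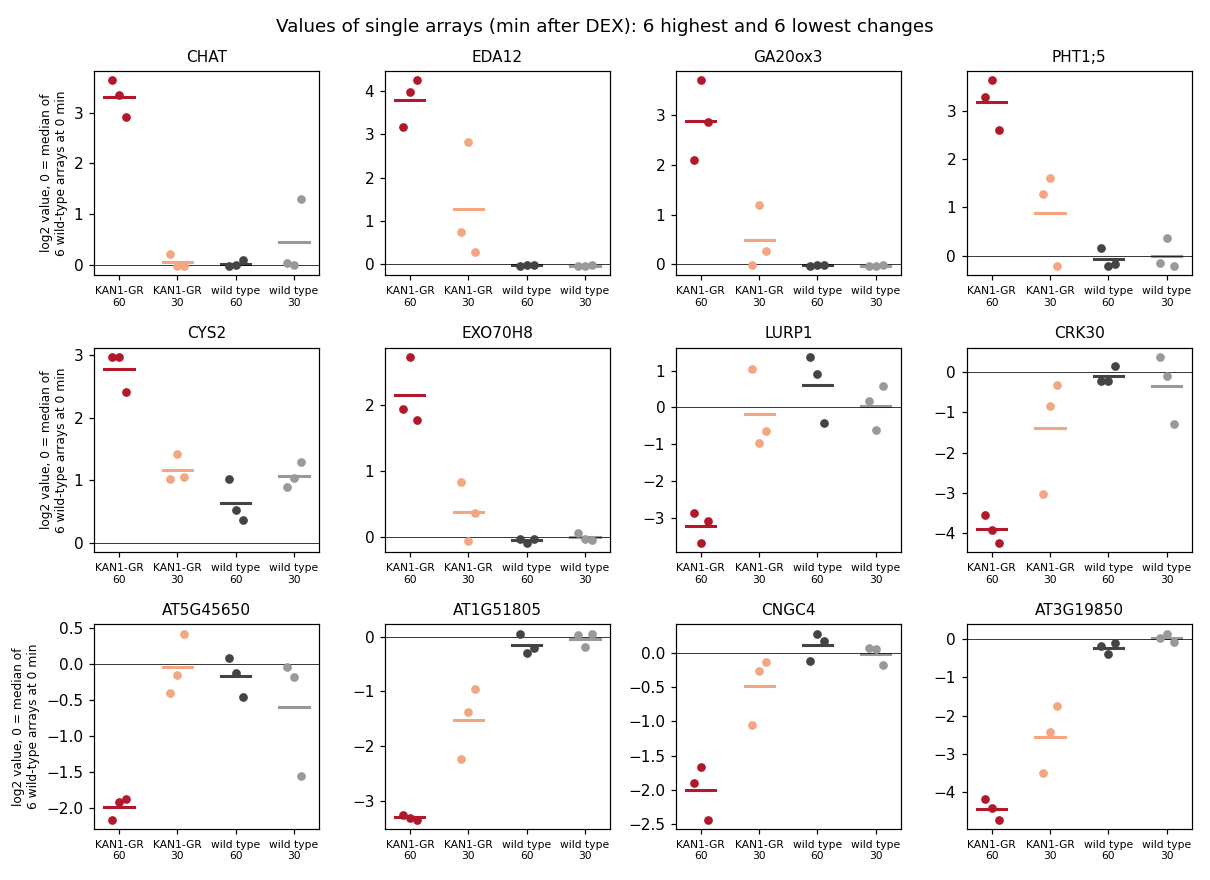
Points are single arrays and bars the means of 3, in log2 units with 0 at the median of untreated wild type, for the 6 highest and the 6 lowest changes among probe sets of 1 gene. In all 12 panels the KAN1-GR arrays at 60 min stand apart from the other 3 groups, for EDA12 with its lowest array at 3.16 at 60 min against 2.83 for the highest in KAN1-GR at 30 min. The panels were chosen by the change in these same arrays, which favours such a separation. How many of all tested probe sets separate this way was not counted.

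Among the falls was PIN4 (AT2G01420), an efflux carrier that moves the hormone auxin out of cells. It was at -2.2, -2.05 and -1.69 in KAN1-GR at 60 min and at -0.78, -0.46 and -0.46 in KAN1-GR at 30 min. In wild type it was at -0.19, -0.18 and -0.08 at 60 min and at -0.01, -0.24 and -0.18 at 30 min. The line's groups were apart from each other and from wild type, whose 2 times overlapped. The change was -1.41 ± 0.21 (SE), a 2.65-fold fall, with an adjusted p of 0.000551. It held in all 12 fits without 1 array (-1.55 to -1.30) and was lost after quantile normalisation (-1.03, adjusted p = 0.0863).

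Several genes linked to defence or encoding receptor-like kinases fell. CNGC4 (AT5G54250), a cyclic nucleotide-gated channel needed for defence responses, was at -1.90, -1.67 and -2.43 in KAN1-GR at 60 min and at -1.06, -0.27 and -0.14 in KAN1-GR at 30 min, while wild type lay between -0.19 and 0.27. It fell by 1.65 ± 0.26 (adjusted p = 0.000761), and the call held after quantile normalisation and in all 12 fits without 1 array. CRK30 (AT4G11460), a cysteine-rich receptor-like kinase gene, was at -3.55, -3.92 and -4.24 in KAN1-GR at 60 min and at -3.03, -0.85 and -0.32 in KAN1-GR at 30 min. In wild type it was at -0.21, -0.23 and 0.16 at 60 min and at 0.37, -0.11 and -1.29 at 30 min. Its change of -2.75 ± 0.58 (adjusted p = 0.0186) rests on uneven 30 min groups. It was lost without wild type at 30 min, replicate 6 (-2.28), wild type at 60 min, replicate 6 (-2.63), and KAN1-GR at 30 min, replicate 2 (-2.48) or 3 (-2.21), and after quantile normalisation (-2.18, adjusted p = 0.0967).

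LURP1 (AT2G14560), a gene named for its late rise after oomycete infection, had the lowest estimate, -3.60 ± 0.83 (adjusted p = 0.0431). It was at -2.87, -3.68 and -3.09 in KAN1-GR at 60 min and at 1.04, -0.95 and -0.64 in KAN1-GR at 30 min, against 1.37, 0.90 and -0.43 in wild type at 60 min and 0.17, -0.61 and 0.57 in wild type at 30 min. All 3 KAN1-GR arrays at 60 min were below every other array, yet the call held in only 3 of the 12 fits without 1 array, those without replicate 6 of wild type at either time or without KAN1-GR at 30 min, replicate 2. The estimates ran from -4.12 to -2.99, and the call was also lost after quantile normalisation (-3.28, adjusted p = 0.124). The receptor-like kinase gene PERK15 fell by 1.4 and the flagellin receptor gene FLS2 by 1.29, with calls in 4 and 3 of these 12 fits and lost after quantile normalisation (adjusted p = 0.167 and 0.212). FLS2 was at -2.49, -3.26 and -3.23 in KAN1-GR at 60 min and at -1.38, -1.52 and -2.08 in KAN1-GR at 30 min, with wild type between 0.16 and 0.72, so it was lowered at both times. These genes were grouped after their values were seen. In the list of 11 tested genes of salicylate and defence no member passed, and its median was -0.13.

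The other falls among the lowest 12 are known here by locus. AT5G45650 fell by 2.37 ± 0.42, AT1G51805 by 1.67 ± 0.28, AT2G16660 by 1.47 ± 0.26 and AT4G27900 by 1.45 ± 0.28, and each kept its call in all 12 fits without 1 array. AT1G51805 was at -3.26, -3.32 and -3.35 in KAN1-GR at 60 min and at -2.24, -1.38 and -0.95 in KAN1-GR at 30 min, with wild type between -0.29 and 0.06, so it went on falling from a level already low at 30 min. For AT5G45650, wild type at 30 min, replicate 6 (-1.55) lay below the other 2 arrays of its group (-0.04 and -0.18), and the gene was lost after quantile normalisation (adjusted p = 0.0681). For AT4G27900 that array (-1.10) also lay below the other 2 (-0.002 and 0.06), and the limma adjusted p in KAN1-GR alone was 0.0327. AT2G16660 moved in wild type too, from -0.34, -0.35 and -0.08 at 30 min to 0.47, 0.43 and -0.01 at 60 min. AT3G19850, at -1.61, and AT3G15570, at -1.56, kept their calls in 2 fits each of the 12, and AT5G63180, at -1.52, in all but those without wild type at 30 min, replicate 6 (-1.2), wild type at 60 min, replicate 4 (-1.49), or KAN1-GR at 30 min, replicate 3 (-1.27). After quantile normalisation these 3 did not pass (adjusted p = 0.0674, 0.503 and 0.139). AT3G49220, at -0.98 ± 0.14, is a smaller fall that held in every fit but that of the 12 arrays alone. The sulfate transporter gene AST91 fell by 0.90 and the sucrose symporter gene SUC1 by 0.70, the first with a call in 12 and the second in 2 of the fits without 1 array, and neither passed after quantile normalisation (adjusted p = 0.0735 and 0.483).

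The 56 probe sets differed in what had happened by 30 min. With the 0 min arrays as a starting point, 18 had already changed the same way at 30 min (7 rises and 11 falls), 34 had not passed the threshold (22 rises and 12 falls), and 4 had gone the opposite way. For comparison, 387 of all probe sets passed at 30 min (2.40%) and 1103 at 60 min (6.84%). CHAT, GA20ox3 and EXO70H8 were in the second class, with responses of -0.22, 0.52 and 0.47 at 30 min and of 3.44, 2.92 and 2.28 at 60 min. CYP96A9 was in the first, with responses of 3.01 and 4.34, as were CRK30 (-2.58 and -5.33) and AT3G19850 (-3.30 and -4.91). The 4 that turned back all rose after a fall: BR6OX2 (-2.62 at 30 min and -1.31 at 60 min), the GRAS-family gene SCL3 of gibberellin signalling (-1.31 and -0.47), the trihelix factor gene GTL1 (-1.02 and -0.31) and KT1 (-1.10 and 0.22). SCL3 was at -0.64, -0.35 and -0.63 in KAN1-GR at 60 min and at -1.36, -1.25 and -1.56 in KAN1-GR at 30 min, with wild type between -0.10 and 0.15. SCL3 and GTL1 changed by 0.84 and 0.70 from 30 to 60 min, with calls in 6 and 5 of the 12 fits without 1 array and none after quantile normalisation. These classes share the 30 min arrays with the comparison itself, so an array that is high or low at 30 min moves a gene between them, and they were not tested.

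**Figure D3:**
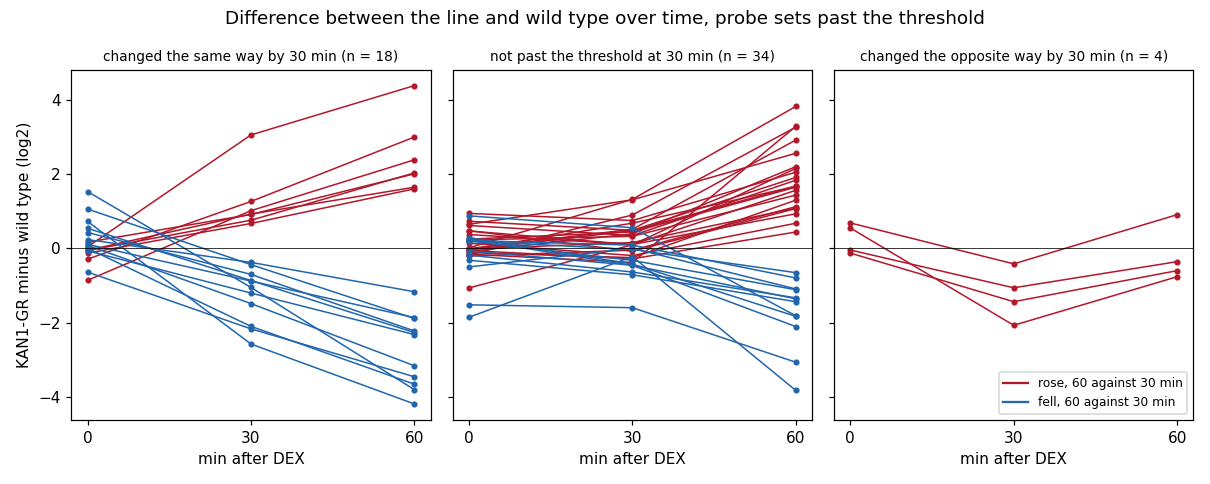
Lines join the differences between KAN1-GR and wild type (log2, means of 3 arrays each) at 0, 30 and 60 min after DEX for the 56 probe sets, in 3 panels by what their response had done by 30 min. In the middle panel the 34 probe sets had responses from -0.71 (PIN4) to 1.63 (LURP1) at 30 min, none past the threshold, and in the right panel the 4 lines dip at 30 min and come back up.

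For most of the 56 the larger move was in the line. Of the 56 probe sets, 53 moved further in KAN1-GR than in wild type, all 56 moved in KAN1-GR in the direction called, and 52 also passed in KAN1-GR alone, where 320 of all probe sets did (1.98%). The KAN1-GR change is part of the comparison that chose the 56, which favours the last 2 counts, so they are a description. The counts of 53 and of 56 were not taken over all probe sets. In wild type alone 40 passed (0.248%), among them 2 of the 56. These 2 were AT1G09390, at -0.57 in wild type and 0.30 in KAN1-GR, and AT3G01730, at 1.08 in wild type and -0.02 in KAN1-GR. AT3G01730 was between -0.46 and -0.41 on all 6 KAN1-GR arrays and at 1.25, 0.71 and 0.02 in wild type at 60 min, so its call as a fall comes from wild type. The fourth probe set that did not pass in the line alone, beside these and HIS1-3, was AT1G21480, at 0.37 in KAN1-GR (adjusted p = 0.0573).

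The genes of leaf polarity, the process KAN1 is known for, did not pass between 30 and 60 min. None of 4 KANADI, 5 HD-ZIPIII, 2 LITTLE ZIPPER, 11 other leaf polarity and 7 HD-ZIPII genes tested did, by limma with adjusted p, against 0.347% of all probe sets. Their medians were -0.31, -0.04, -0.02, -0.38 and 0.03, beside -0.02 over all probe sets. The KANADI median takes in KAN1, whose probe set also reports the transgene. At an unadjusted p below 0.05 there were 2 of these 29, a share close to the 7.08% of all probe sets: YAB5 at -0.72 ± 0.23 (adjusted p = 0.264) and FIL at -0.44 ± 0.19 (adjusted p = 0.62), both YABBY factors of the abaxial side. YAB5 was at -0.74, -0.53 and -0.44 in KAN1-GR at 60 min and at -0.38, -0.03 and 0.09 in KAN1-GR at 30 min, against 0.18, 0.18 and 0.10 in wild type at 60 min and -0.20, -0.04 and -0.07 in wild type at 30 min. With array weights YAB5 passed in limma (-0.84, adjusted p = 0.0396). The weight was 6.77 for wild type at 30 min, replicate 4, beside 1.2 and 0.299 for replicates 5 and 6. It was 3.55 for KAN1-GR at 30 min, replicate 2, beside 0.392 and 0.445 for replicates 1 and 3. Each 30 min mean thus rested mostly on 1 array.

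KAN3 (AT4G17695), a close relative of KAN1, was already low at 30 min and had an estimate of -0.64 ± 0.33 (adjusted p = 0.732). It was at -1.65, -1.81 and -1.42 in KAN1-GR at 60 min and at -1.01, -1.03 and -1.0 in KAN1-GR at 30 min, with wild type between -0.07 and 0.64. The 3 arrays at 60 min were all below those at 30 min, by less than the test could separate. KAN2 (AT1G32240) was at -0.52, -1.08 and -0.71 in KAN1-GR at 60 min and at -0.76, -1.01 and -1.44 in KAN1-GR at 30 min, with an estimate of 0.58 ± 0.34. REV itself was at -0.47, -0.77 and -0.27 in KAN1-GR at 60 min and at -0.14, -0.20 and -0.45 in KAN1-GR at 30 min, and its estimate was -0.26 ± 0.17 (adjusted p = 0.845). Among the other HD-ZIPIII genes, PHB was at -0.04, PHV at 0.24, CNA at 0.04 and ATHB8 at -0.08, with adjusted p of 0.924 to 0.987. KAN4 was at -0.09, ZPR1 at 0.07 and ZPR3 at -0.11, and the HD-ZIPII genes ran from -0.15 for HAT2 to 0.53 for ATHB2.

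Among the 25 lists of further genes and markers described by pathway or cell type, 4 had a member past the threshold, 1 gene each. PIN4 was the only one of 15 auxin transport genes, where 2 more of the lowest p were PIN3 at -0.47 ± 0.16 (adjusted p = 0.339) and LAX2 at -0.76. ABI2 was the only one of 24 ABA signalling genes, GA20ox3 the only one of 7 gibberellin metabolism genes and BR6OX2 the only one of 9 brassinosteroid metabolism genes. The next by p in those lists were PYL1, an ABA receptor gene, at -0.59, KO1 of early gibberellin synthesis at 0.53 and DWF4 of brassinosteroid synthesis at 0.52, with adjusted p of 0.616, 0.514 and 0.864. No gene passed among 4 of auxin synthesis, 19 Aux/IAA, 8 GH3 and SAUR, 9 of ethylene, 17 of jasmonate, 22 of touch and wound, 9 of heat shock, 15 of the circadian clock, 22 of cell wall growth, 19 of cell division, 10 growth bHLH genes or 8 dehydration markers.

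Of 15 cytokinin response genes none passed, but 12 had estimates above 0 and the median was 0.39, beside -0.02 over all probe sets. At an unadjusted p below 0.05 there were 5 (33.3%, beside 7.08% of all probe sets), all above 0. These were the type A response regulators ARR5, ARR6, ARR7 and ARR8, which cytokinin induces and which damp its signal, and CKX5, a cytokinin oxidase gene with the highest estimate of the list, 1.11 ± 0.35 (adjusted p = 0.26). ARR7 (AT1G19050) was at 0.17, 0.92 and 0.30 in KAN1-GR at 60 min and at 1.72, 1.26 and 2.06 in KAN1-GR at 30 min, against -0.69, -0.69 and -0.09 in wild type at 60 min and 1.93, 1.31 and 2.2 in wild type at 30 min. It thus fell in both, by 1.22 in KAN1-GR and by 2.3 in wild type, and the difference of 1.09 ± 0.31 had an adjusted p of 0.158. ARR6 (AT5G62920) fell by 1.06 in KAN1-GR and by 2.05 in wild type, a difference of 0.99 ± 0.28 (adjusted p = 0.152). At 60 min ARR7 was higher in KAN1-GR than in wild type by 0.95 (adjusted p = 0.00177) and ARR6 was at -0.02. After quantile normalisation ARR6 (1.91), ARR7 (1.90) and ARR8 (1.4) passed, and with array weights ARR6, ARR7 and CKX5 did. Quantile normalisation changes the spread of the wild-type arrays, where ARR6 and ARR7 moved more. The array weights rest each 30 min mean mostly on 1 array.

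Markers of cell types did not pass either: none of 6 for photosynthetic tissue, 9 for root hairs, 8 for the endodermis, 11 for vascular tissue, 4 for the shoot meristem and 7 for guard cells. All 7 guard cell markers had estimates below 0, with a median of -0.26, and the lowest unadjusted p was that of the potassium channel gene KAT1 (-0.85, adjusted p = 0.659). With array weights 1 of these 7 was above 0. The summed level of the guard cell markers, as a mean, ran from -0.43 to -0.10 in KAN1-GR at 60 min and from -0.32 to 0.30 in KAN1-GR at 30 min, against -0.06 to 0.27 in wild type at 60 min and -0.21 to 0.13 in wild type at 30 min. In the flavonoid list 8 of 9 estimates were below 0 (median -0.44), with chalcone synthase, CHS, at -0.75 (adjusted p = 0.523).

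The same comparison was made in the GR-REV line, which carries REV joined to the receptor domain under the same promoter. This line was grown with a wild type of its own on another day. The means compared came from none of these 12 arrays, while the spread came from the same fit. There 47 probe sets passed between 30 and 60 min (0.291%), and none of them was among the 56 of KAN1-GR. Over the 33 that rose in KAN1-GR the GR-REV change had a median of -0.15 and a range of -1.14 to 0.70, and over the 23 that fell a median of 0.00 and a range of -0.66 to 0.65. The difference between the lines' changes passed in 54 of all probe sets (0.335%) and in 25 of the 56. A choice by the KAN1-GR change favours a difference of that sign, so the 25 are a description. CHAT differed by 3.65 ± 0.36 (adjusted p = 3.59e-07), at 3.67 in KAN1-GR and 0.01 in GR-REV. GA20ox3 differed by 2.39 ± 0.43 and ABI2 by 1.26 ± 0.22, with 0.01 and 0.01 in GR-REV. BR6OX2 differed by 2.45 ± 0.39 (adjusted p = 0.00269), at 1.31 in KAN1-GR and -1.14 in GR-REV. PIN4 differed by -1.56 ± 0.30 (adjusted p = 0.0125) and CNGC4 by -1.80 ± 0.36 (adjusted p = 0.0148), at 0.15 and 0.16 in GR-REV. The 2 lines were grown on different days, so line and day cannot be told apart in this difference beyond the subtraction of each day's wild type. After quantile normalisation 4 probe sets passed for the difference, CHAT and GA20ox3 (adjusted p = 0.0499) among them, while BR6OX2 (0.085), ABI2 (0.0798), CNGC4 (0.0946) and PIN4 (0.346) did not, and without wild type at 60 min, replicate 4, 32 did.

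**Figure D4:**
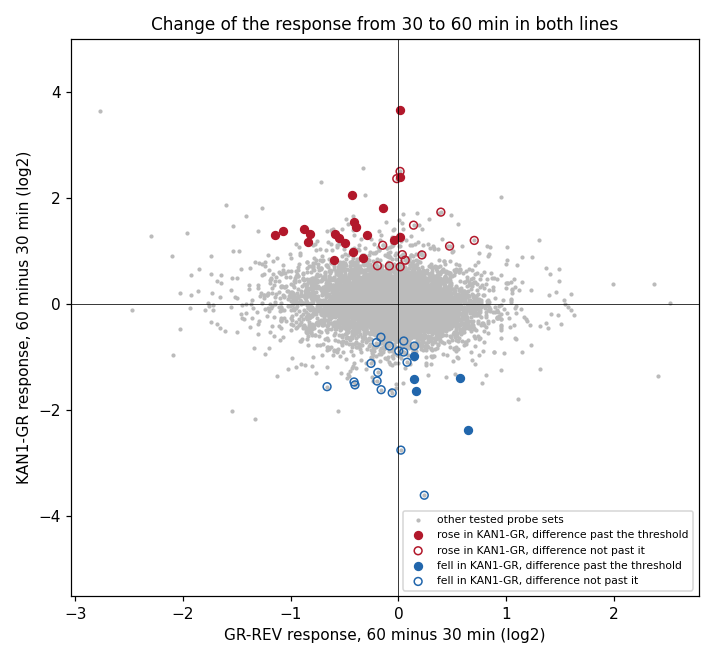
Each point is a tested probe set, with the change of the response from 30 to 60 min in GR-REV (x axis, log2) and in KAN1-GR (y axis, log2). The 56 probe sets past the threshold in KAN1-GR are coloured, and filled in the 25 where the difference between the lines passed too; in GR-REV they spread between -1.14 and 0.70.

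Probe sets that had responded in GR-REV gave a further set, whose means came from other arrays but whose spread came from the same fit. A low spread favours passing in both tests, so the percentages given here are a description. In every list of GR-REV responses, rises and falls at 30, 60 and 120 min, the share lay above 0.347%, from 0.524% to 2.34%. For rises and falls at 30 min and rises at 120 min it rests on 1 probe set each, of 139, 84 and 191. In lists this short 1 call is enough to exceed 0.347%. The lists also share the arrays at 0 min, so they are not separate observations. The part of the shared spread in these shares was not tested. Of 421 whose response in GR-REV at 60 min was a fall, 8 rose and 1 fell in KAN1-GR between 30 and 60 min (2.14%, beside 0.347% of all), and of 283 whose response was a rise, 2 rose and none fell (0.707%). NAC6 and BR6OX2 were among the first, at -2.69 and -1.99 in GR-REV at 60 min. Of 428 whose response at 120 min was a fall, 4 rose and 6 fell (2.34%), among them CYS2 (-2.36 in GR-REV) as a rise and LURP1 (-3.29) as a fall. The medians of the KAN1-GR change over these 421 and 428 were 0.07 and 0.04. Of the probe sets that differed between KAN1-GR and wild type before DEX, 0.878% of the 797 higher and 0.536% of the 933 lower passed between 30 and 60 min. Among these were AT2G16660, at -1.52 relative to wild type at 0 min, and ATH1, at 0.94.

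**Figure D5:**
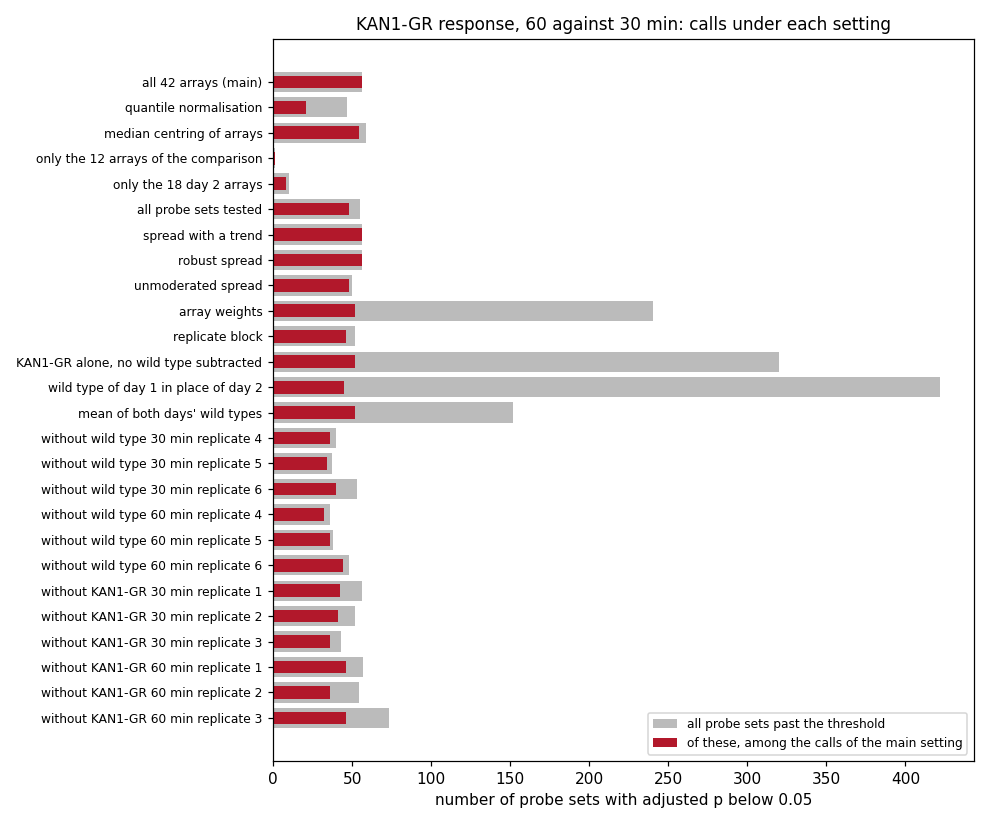
Grey bars count the probe sets past an adjusted p of 0.05 for the KAN1-GR change from 30 to 60 min under each setting, and red bars those among the 56 of the fit on all 42 arrays. The count falls to 1 with the 12 arrays of the comparison alone and rises to 422 with the wild type of day 1, grown with GR-REV, in place of day 2.

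How far the 56 calls depend on single arrays and on scaling can be read gene by gene. Of the 56, 25 passed in all 12 fits without 1 array, and 21 passed after quantile normalisation, where the total was 47. That scaling gives the wider KAN1-GR arrays and the narrower wild-type arrays 1 distribution, so the 21 do not measure robustness alone. The 6 that passed in every fit except that of the 12 arrays alone were CHAT, which passed there too, CYS2, EXO70H8, AT1G79520, ABI2 and AT3G49220. In no fit did any of the 56 change direction. In fits that alter only the spread or leave out arrays outside the comparison, the estimates stay the same, so there this was fixed in advance.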

How the data were processed

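RNA was measured on 42 Affymetrix ATH1 arrays, in 14 groups of 3 that share line, time and growth day, so precision is limited by 3 arrays a group. The deposited log2 values were made by the authors with GCRMA, per the submitters' processing notes (its version was not given). The log base follows from that method. The values show that every probe set was centred on untreated wild type. A second deposited table held the same values and, in another unit, the authors' ANOVA p-values for 16164 probe sets; whether these are adjusted is not given in the sources used here. Probe sets with such a p-value, less 35 controls, were tested, which left 16129; the test's choice of probe sets thus follows a filter of the authors that saw these groups. Genes came from the platform's table (15138 probe sets with 1 gene, 710 with several, 281 with none), and names from RefSeq.

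All 42 arrays entered 1 linear model of group means (limma 3.58.1 in R 4.3.3; 28 residual and 3.92 prior degrees of freedom; median SE of the comparison 0.213). Moderated two-sided tests were adjusted by Benjamini and Hochberg's method over the 16129 probe sets, with a threshold of 0.05. Changes of values given for KAN1-GR alone, wild type alone, GR-REV and the responses from 0 min are contrasts of the same fit. The script was tested on simulated data. Replicates are separate flasks, and replicate numbers were not used as pairs.

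The genes named are the 12 largest rises and 12 largest falls past the threshold among probe sets of 1 gene, KAN1 and REV, all tested members of the KANADI, HD-ZIPIII, LITTLE ZIPPER, leaf polarity and HD-ZIPII lists, and of the other lists those past the threshold and up to 3 more by unadjusted p. NPF3.1, SCL3, KT1, GTL1, FLS2, AST91, SUC1, NHX2, ATH1, VDD, BPEp, MYB14, AT3G49220, AT1G09390, AT1G21480, AT3G01730 and ARR8 were named after their values were seen. In all 30 lists with 434 entries, 326 of them tested, were used. The members and lists were chosen with earlier results of these data known. Alternatives were quantile normalisation and median centring of arrays, other sets of arrays and of probe sets, other estimates of spread, array weights, a 2-fold minimum, a replicate block, other wild-type references and leaving out each array. No sequences are shown.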

Additional observations from a re-analysis of the deposited data

Results flagged for a closer look

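For 16 of the genes whose sensitivity was examined, the change from 30 to 60 min differed between KAN1-GR and GR-REV by the test of the difference itself (limma, adjusted p below 0.05). The values are KAN1-GR minus GR-REV on the log2 scale. Higher in KAN1-GR were CHAT (3.65), CYS2 (2.49), BR6OX2 (2.45), NAC6 (2.44), GA20ox3 (2.39), KT1 (2.14), AT1G79520 (1.96), EXO70H8 (1.95), CYP96A9 (1.92), CAX3 (1.85), SCL3 (1.43) and ABI2 (1.26). Lower were PIN4 (-1.56), CNGC4 (-1.80), PERK15 (-1.97) and AT5G45650 (-3.02). In GR-REV alone none of these 16 passed, and their changes there ran from -1.14 for BR6OX2 to 0.65 for AT5G45650. The genes were chosen by their change in KAN1-GR, which favours a difference of that sign, so the 16 are a description. Over all probe sets the difference passed in 54 (0.335%). Line and growth day cannot be told apart in it. After quantile normalisation the difference passed for 3 of the 16, CHAT, GA20ox3 and AT1G79520, and not for the other 13, all of which kept their direction. Without 1 array at a time 11 of the 16 passed in all 12 fits, while CAX3 passed in 6, CYP96A9 in 7, CYS2 in 4, PERK15 in 4 and EXO70H8 in 3.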

How the results depend on the processing

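For the 29 genes followed through the alternatives, 543 of 725 gene and setting pairs kept an adjusted p below 0.05. The other 182, in 28 of the genes, did not. No pair changed direction, but in many of them it could not. The estimates stay the same on the 12 or 18 arrays alone, with all probe sets, with other estimates of spread and with a replicate block. The count of 56 became 1 with only the 12 arrays of the comparison, 10 with only the 18 arrays of KAN1-GR and day 2 wild type (8 of them among the 56; an alternative chosen after seeing the data), 240 with array weights, 320 for KAN1-GR alone with no wild type subtracted, 422 with the wild type of day 1 and 152 with the mean of both days' wild types. Without 1 array at a time it ran from 36 to 73, with 32 to 46 of the 56 kept. The fits on fewer arrays have fewer degrees of freedom (8 and 12 against 28). Their median SE over the 56 was also larger, 0.278 and 0.280 against 0.256. Why the counts moved was not tested. Quantile normalisation gave 47, with falls at 14 against 23. The count for KAN1-GR against GR-REV, 54, was 4 after quantile normalisation, 35 with all probe sets tested, 35 with an unmoderated spread and 201 with array weights, and ran from 32 to 77 without 1 array. Quantile normalisation also gave 82 against 320 calls for KAN1-GR alone and 498 against 40 for wild type alone. The same replicate number did not go with shared deviations at 30 and 60 min (r = 0.0349, 0.0491 and -0.24 in KAN1-GR, 0.0211, -0.375 and -0.39 in wild type), and with a replicate block 52 probe sets passed, 46 of them among the 56. With centred values and no levels, probe sets near background could not be set apart.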
